A study of Mus musculus with 30 samples.

Results

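The enzymes that write and keep DNA methylation were followed in the embryonic mouse ovary. They are Dnmt1, the maintenance DNA methyltransferase; Uhrf1, which brings Dnmt1 to newly replicated DNA; Dnmt3a and Dnmt3b, which methylate DNA de novo; and Dnmt3l, a related protein with no catalytic activity that stimulates Dnmt3a and Dnmt3b. Every probe set that the platform annotation assigns to one of these 5 genes was taken, which gave 12 of 36701 probe sets that were not controls, and 9 of the 12 passed the filter on low signal described below. All 5 genes kept at least 1 tested probe set.

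Ovaries of mouse embryos were pooled at each of 5 ages, 11.5, 12.5, 14.5, 16.5 and 18.5 dpc (days post coitum), and each age is represented by 2 numbered samples. Every number was hybridised to the array types A, B and C of an Affymetrix set, which gave 30 arrays, 10 of each type. All mice were BL/6-129, total RNA was isolated with TRIzol, and no genotype or treatment differed between ages. The labels record a PCR for the male gene Sry to sex the gonads of 11.5 and 12.5 dpc. Whether the 2 samples of one age were separate pools is not stated, so p-values measure only how these samples spread, and that spread may be technical.

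DNA methylation is copied at each cell division because Uhrf1 recognises hemimethylated CpG sites behind the replication fork and Dnmt1 fills in the missing methyl group. Germ cells are an exception in this tissue. Primordial germ cells lose most of their methylation around the time they settle in the gonad, and female germ cells stay poorly methylated through meiotic entry and arrest. In the mouse, oocytes regain methylation after birth, during growth, through Dnmt3a and Dnmt3l. The whole ovary also contains supporting, stromal, endothelial and blood cells, which keep their methylation. In RNA of a whole tissue, fewer cells of a type and less RNA per cell cannot be told apart.

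The deposited signals had been scaled by the authors to a mean of 125 per array, and median signals ran from 47.0 to 81.7. A signal of 50 was reached by 48.8% to 63.0% of probe sets, depending on the array. The summed signal of 18 germ cell marker genes (of 19 listed) was 2579 to 2781 at 11.5 dpc, 3647 to 4682 at 12.5 dpc, 4115 to 5119 at 14.5 dpc, 2785 to 2957 at 16.5 dpc and 6157 to 6246 at 18.5 dpc. The sum of 12 supporting cell markers ran from 10786 to 16506 over the 10 samples, and that of 10 erythroid markers (of 12 listed) from 16396 to 24960. In the supporting cell sum, the single probe set Amhr2 166095_f_at gave 5825.7 to 9861.1. Between 18.5 and 11.5 dpc the germ cell sum and several other sums differed without overlap. The erythroid sum was 24351 to 24960 at 18.5 dpc, against 16396 to 17990 at 11.5 dpc. That of 8 testis markers was 1205 to 1213 at 18.5 dpc, against 1329 to 1705 at 11.5 dpc. That of 6 surface epithelium markers was 2669 to 2814 at 18.5 dpc, against 1019 to 1538 at 11.5 dpc, and that of 9 endothelial markers was 522 to 538, against 816 to 873. That of 10 mesenchyme markers was 4961 to 5171 at 18.5 dpc, against 3309 to 3623 at 11.5 dpc, and highest at 16.5 dpc (5581 to 8396). Single markers, called as described below, went both ways in most lists at 18.5 against 11.5 dpc. Rises and falls were 9 and 5 (16 germ cell genes tested), 5 and 2 (12 supporting cell) and 3 and 3 (9 erythroid). They were 5 and 2 (10 mesenchyme), 4 and 1 (5 surface epithelium), 1 and 1 (5 testis) and 0 and 4 (8 endothelial). Over all genes 9.14% rose and 8.37% fell. For the Gapdh controls, the 3 prime signal over the 5 prime signal, a measure of RNA integrity, was 0.829 to 0.845 at 11.5 and 12.5 dpc, 0.885 and 0.951 (14.5 dpc), 0.917 and 1.09 (16.5 dpc) and 1.08 and 1.05 (18.5 dpc), replicate 1 before replicate 2. The part of cell composition and RNA integrity in the changes below was not tested.

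Signals were analysed as log2(signal + 16), so a fold change of a low signal is understated. Testing required a signal of 50 or more on 2 or more of the 10 arrays carrying the probe set. A change was called at an adjusted p under 0.05 from limma, with Benjamini-Hochberg adjustment over all 24825 tested probe sets. Levels of different probe sets are not on a common scale. They were set against each other to pick the probe set that represents a gene in a list or marker sum. The marker sums also add such levels together, so strong probe sets weigh most in them.

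None of the 9 member probe sets was called in any of the 5 age comparisons or in the F test over the 5 ages. At 12.5 against 11.5 dpc 0 of 9 were called, where 0.226% of all tested probe sets were, and 0 of 9 had an unadjusted limma p under 0.05, where 12.4% of all did. At 14.5 against 12.5 dpc the members gave 0 calls, with 1.66% of all probe sets called, and 1 of 9 had an unadjusted p under 0.05, against 14.9% of all. At 16.5 against 14.5 dpc there were 0 calls, with 0.689% of all called, and 3 of 9 members had an unadjusted p under 0.05, against 15.6% of all. At 18.5 against 16.5 dpc there were 0 calls, with 0.624% of all called, and 1 of 9 had an unadjusted p under 0.05, against 13.1% of all. Over the whole course, 18.5 against 11.5 dpc, there were 0 calls although 14.5% of all probe sets were called. There, 1 of 9 members had an unadjusted p under 0.05, against 28.9% of all. In the F test 0 of 9 were called, with 14.4% of all called, and 4 of 9 had an unadjusted p under 0.05, against 31.3% of all. The median log2 change of the 9 at 18.5 against 11.5 dpc was 0.03, beside 0.02 over all probe sets tested.

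**Figure D1:**
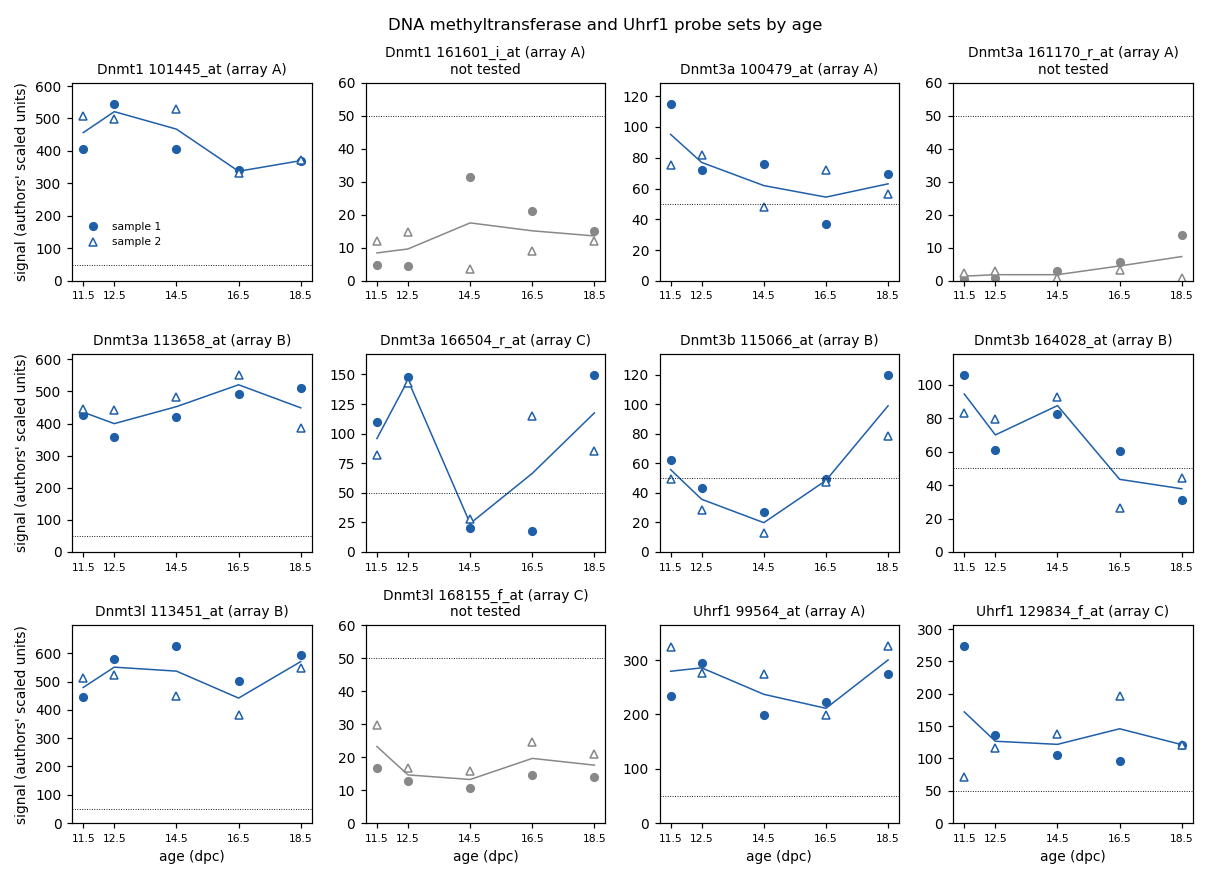
Signal (authors' scaled units, linear axis) of each of the 12 member probe sets against age in dpc. Filled circles are sample 1, open triangles are sample 2, the line joins the means of the 2 samples, the dotted line marks a signal of 50, and the 3 grey panels are probe sets that were not tested. Dnmt1 101445_at lies lower on the 4 arrays of 16.5 and 18.5 dpc (332.8 to 371.4) than on the 6 earlier ones (405.2 to 544.4), a split that was not tested. At 18.5 dpc Dnmt3b 115066_at lies above, and 164028_at below, its own 11.5 dpc values.

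The maintenance methyltransferase Dnmt1 was measured by probe set 101445_at, which reached a signal of 50 on all 10 A arrays. The gene lies on chromosome 9, minus strand, at 20907206 to 20959888 (GRCm38.p6). Its signal in order of age was 405.2 and 507.6 (11.5 dpc), 544.4 and 497.8 (12.5 dpc), 406.5 and 528.0 (14.5 dpc), 342.0 and 332.8 (16.5 dpc) and 368.8 and 371.4 (18.5 dpc). All 4 samples of the later ages, 16.5 and 18.5 dpc, lay below all 6 samples of the earlier ages. This split was not a planned comparison and was not tested. The share of all probe sets with such a split, or with the samples of any 2 ages apart, was not counted. The order of mean signals was 12.5 dpc (521 ± 33.0, SD, n = 2), 14.5 dpc (467 ± 85.9), 11.5 dpc (456 ± 72.4), 18.5 dpc (370 ± 1.84) and 16.5 dpc (337 ± 6.51). Neighbours in this order overlapped except 18.5 and 11.5 dpc, and 16.5 and 18.5 dpc.

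The largest interval difference in Dnmt1 was at 16.5 against 14.5 dpc, with a log2 change of -0.44 (SE 0.17, 95% interval -0.81 to -0.07). Both samples of 16.5 dpc lay below both of 14.5 dpc, but the change was not called (limma adjusted p = 0.235). Over the whole course the log2 change was -0.28 (95% interval -0.65 to 0.09, adjusted p = 0.301), with both samples of 18.5 dpc below both of 11.5 dpc. In the F test over the 5 ages the adjusted p was 0.0997, and without 11.5 dpc replicate 1 it was 0.0487. The second Dnmt1 probe set, 161601_i_at, was not tested, since its signal stayed between 3.5 and 31.6.

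Uhrf1, the partner that brings Dnmt1 to replicated DNA, lies on chromosome 17, plus strand, at 56303337 to 56323486 (GRCm38.p6). Probe set 99564_at on array A gave 234.1 and 324.9 (11.5 dpc), 295.2 and 276.4 (12.5 dpc), 199.4 and 274.7 (14.5 dpc), 223.2 and 199.4 (16.5 dpc) and 275.3 and 325.4 (18.5 dpc). The mean was lowest at 16.5 dpc and highest at 18.5 dpc, and these ages did not overlap. The log2 change at 18.5 against 16.5 dpc was 0.47 (SE 0.20, 95% interval 0.04 to 0.91), which was not called (limma adjusted p = 0.330). Between 18.5 and 11.5 dpc Uhrf1 differed by less than the spread between samples, with a log2 change of 0.11 (95% interval -0.32 to 0.54, adjusted p = 0.767).

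The other tested Uhrf1 probe set, 129834_f_at on array C, carries a suffix for probes that may match other transcripts. Its samples differed most at 11.5 dpc, with 273.3 and 70.5, and gave 121.2 and 121.3 at 18.5 dpc. The log2 change at 18.5 against 11.5 dpc was -0.20, with a wide interval of -1.31 to 0.90 (limma adjusted p = 0.837). Across the 10 A arrays, Pearson's r between Dnmt1 101445_at and Uhrf1 99564_at was 0.548, a description of arrays that share their scaling.

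Start regions of Dnmt1 (2 of 3) and Uhrf1 (both) are shown because both are replication-linked genes. E2F factors, which drive S-phase transcription, bind cores that fall within the letters TTTNNCGC, where N is any base. This pattern is looser than those cores, so a match need not be an E2F core. The sequences are RefSeq's (GRCm38.p6), from 250 bases before to 50 bases after an annotated start, in the direction of the gene. Capitals mark TTTNNCGC or its reverse complement GCGNNAAA, searched on both strands. Dnmt1 is known to use another first exon in oocytes than in somatic cells, and the arrays give 1 value per probe set and do not tell starts apart.
Dnmt1 start 1, chr9:20959839-20960138, minus strand: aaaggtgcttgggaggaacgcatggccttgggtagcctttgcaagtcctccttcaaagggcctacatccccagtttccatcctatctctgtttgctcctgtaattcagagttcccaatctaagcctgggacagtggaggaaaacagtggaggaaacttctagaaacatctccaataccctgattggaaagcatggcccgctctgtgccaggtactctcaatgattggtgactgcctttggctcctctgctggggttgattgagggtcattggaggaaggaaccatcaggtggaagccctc
Dnmt1 start 3, chr9:20952574-20952873, minus strand: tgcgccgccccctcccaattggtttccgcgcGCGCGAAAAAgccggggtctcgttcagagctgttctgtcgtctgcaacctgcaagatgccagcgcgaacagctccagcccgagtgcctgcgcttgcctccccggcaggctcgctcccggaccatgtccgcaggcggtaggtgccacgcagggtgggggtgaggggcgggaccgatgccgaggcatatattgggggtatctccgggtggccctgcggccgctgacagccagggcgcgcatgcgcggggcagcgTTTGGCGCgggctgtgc
Uhrf1 start 1, chr17:56303087-56303386, plus strand: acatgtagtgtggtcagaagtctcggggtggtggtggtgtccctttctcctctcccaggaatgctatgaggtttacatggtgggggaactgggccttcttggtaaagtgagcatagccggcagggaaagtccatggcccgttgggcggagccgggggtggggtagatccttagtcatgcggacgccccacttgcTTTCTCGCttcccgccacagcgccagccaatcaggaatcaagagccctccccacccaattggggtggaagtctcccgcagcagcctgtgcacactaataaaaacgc
Uhrf1 start 2, chr17:56304063-56304362, plus strand: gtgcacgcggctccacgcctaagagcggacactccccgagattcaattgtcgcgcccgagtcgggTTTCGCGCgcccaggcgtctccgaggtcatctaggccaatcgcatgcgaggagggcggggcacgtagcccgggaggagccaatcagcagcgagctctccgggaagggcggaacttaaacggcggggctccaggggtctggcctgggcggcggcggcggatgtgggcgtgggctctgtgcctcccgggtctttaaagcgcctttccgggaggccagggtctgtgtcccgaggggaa
The third Dnmt1 window held 33 CpG sites, 1 forward match and 2 reverse matches that overlap each other. The first Dnmt1 window held 2 CpG sites and no match. The second, chr9:20952930-20953229, is not printed and held 12 CpG sites and no match. Both Uhrf1 windows held 1 forward match, with 12 and 33 CpG sites. Over all 5 genes 3 of 12 windows held a match (25%), against 5.17% of 32851 windows of all genes and 28.9% of 38 windows of the replication genes listed below. The median was 15 CpG sites per window for the 5 genes, 7 for all windows and 24 for the replication genes. The searched letters hold a CG, and the windows were not matched for CpG sites. These shares therefore do not separate the motif from CpG content. The first and second Dnmt3a windows overlap. The de novo methyltransferase genes differed among themselves: the Dnmt3a windows held 46, 47 and 18 CpG sites and the Dnmt3b window 30, whereas the Dnmt3l windows held 6, 4 and 3. These are descriptions of letters, not of bound sites.

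Dnmt3a, the de novo methyltransferase that oocytes need for their methylation, lies on chromosome 12, plus strand, at 3801559 to 3914443 (GRCm38.p6), and was covered by 4 probe sets. Probe set 113658_at on array B, which reached 50 on all 10 arrays, gave 426.6 and 444.1 (11.5 dpc), 357.3 and 442.1 (12.5 dpc), 421.9 and 483.3 (14.5 dpc), 490.9 and 550.6 (16.5 dpc) and 511.7 and 386.2 (18.5 dpc). Both samples of 16.5 dpc lay above both of 14.5 dpc, and the samples of 18.5 dpc lay on either side of those of 11.5 dpc. Its log2 change at 18.5 against 11.5 dpc was 0.03, with a 95% interval of -0.40 to 0.46 (limma adjusted p = 0.944). The largest log2 change of an interval was -0.22, at 18.5 against 16.5 dpc (95% interval -0.64 to 0.21, adjusted p = 0.690).

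The other tested Dnmt3a probe sets reached 50 on fewer arrays and had wider errors. Probe set 100479_at on array A reached 50 on 8 of 10 arrays and gave 69.4 and 56.7 at 18.5 dpc, against 114.9 and 75.5 at 11.5 dpc, a log2 change of -0.47 (95% interval -1.10 to 0.15, limma adjusted p = 0.308). Probe set 166504_r_at on array C gave 20.3 and 27.7 at 14.5 dpc, against 147.9 and 142.6 at 12.5 dpc, without overlap. Its log2 change of -2.02 (SE 0.58, 95% interval -3.27 to -0.77) was the largest of any member in any comparison and was not called (limma adjusted p = 0.106). Without 16.5 dpc replicate 1 the adjusted p was 0.042, and over all alternatives it ran from 0.042 to 0.401. The samples of 16.5 dpc were 17.6 and 115.2, farther apart than those of any other age on this probe set. Over the same interval, 14.5 against 12.5 dpc, 113658_at had a log2 change of 0.18 and 100479_at of -0.28, so 2 of the 3 tested Dnmt3a probe sets were lower, neither with a call. The difference between them was not tested. The remaining one, 161170_r_at, was not tested and stayed between 0.5 and 13.9.

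Dnmt3b, which methylates DNA de novo in the early embryo and in somatic lineages, lies on chromosome 2, plus strand, at 153649411 to 153687730 (GRCm38.p6). Its 2 probe sets are both on array B, and their mean signals differed in direction: 1 was higher and the other lower at 18.5 than at 11.5 dpc, neither with a call. Probe set 115066_at gave 62.2 and 49.3 (11.5 dpc), 43.0 and 28.3 (12.5 dpc), 27.1 and 12.5 (14.5 dpc), 49.3 and 47.5 (16.5 dpc) and 119.7 and 78.3 (18.5 dpc). Each age was separate from the age before it, lower at 12.5 and 14.5 dpc and higher at 16.5 and 18.5 dpc. This probe set reached 50 on 3 of 10 arrays only, 2 of them at 18.5 dpc, so it passed the filter only through the age at which it was highest, and its differences between 18.5 dpc and other ages are given as values and not as support.

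The largest interval change of 115066_at was at 16.5 against 14.5 dpc, with a log2 change of 0.88 (SE 0.39, 95% interval 0.04 to 1.71), not called (limma adjusted p = 0.294). At 18.5 against 16.5 dpc the log2 change was 0.81 (95% interval -0.02 to 1.65, adjusted p = 0.396). At 18.5 against 11.5 dpc it was 0.66 (95% interval -0.17 to 1.495, adjusted p = 0.283). At 16.5 against 14.5 dpc the other Dnmt3b probe set, 164028_at, went the opposite way, with a log2 change of -0.86. Its 95% interval was -1.64 to -0.08, and it was not called (limma adjusted p = 0.268). Both Dnmt3b probe sets are among the 3 of 9 members with an unadjusted limma p under 0.05 in that comparison.

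Probe set 164028_at gave 105.8 and 83.3 (11.5 dpc), 60.8 and 79.3 (12.5 dpc), 82.6 and 92.6 (14.5 dpc), 60.5 and 26.4 (16.5 dpc) and 31.3 and 44.3 (18.5 dpc). The samples of 16.5 and 18.5 dpc all lay below those of the earlier ages, a split that was not tested, though 60.5 at 16.5 dpc was next to 60.8 at 12.5 dpc. The log2 change at 18.5 against 11.5 dpc was -1.04 (SE 0.36, 95% interval -1.82 to -0.26), the largest of the members in that comparison, and not called (limma adjusted p = 0.0710). Without 16.5 dpc replicate 2 the adjusted p was 0.0499, and over all alternatives it ran from 0.0499 to 0.284. Across the 10 B arrays Pearson's r between the 2 Dnmt3b probe sets was -0.578. Which transcripts each of them detects was not examined, the difference between them was not tested, and no single direction is given for Dnmt3b.

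Dnmt3l, the cofactor that mouse oocytes need to methylate imprinted genes, lies on chromosome 10, plus strand, at 78042287 to 78063622 (GRCm38.p6). Probe set 113451_at on array B gave 447.1 and 511.1 (11.5 dpc), 579.2 and 522.4 (12.5 dpc), 624.4 and 449.2 (14.5 dpc), 502.4 and 380.7 (16.5 dpc) and 592.1 and 549.0 (18.5 dpc). The mean was lowest at 16.5 dpc, where the sum of germ cell markers was also lower than at 12.5, 14.5 and 18.5 dpc. That sum was lowest at 11.5 dpc (2579 to 2781, against 2785 to 2957 at 16.5 dpc), where the Dnmt3l mean was higher (479, against 442). Whether these go together was not tested. At 18.5 against 16.5 dpc the log2 change was 0.37 (95% interval -0.08 to 0.82), with both samples of 18.5 dpc above both of 16.5 dpc, and was not called (limma adjusted p = 0.486). Over the whole course it was 0.25 (95% interval -0.20 to 0.69, adjusted p = 0.475). The second probe set, 168155_f_at, was not tested and stayed between 10.6 and 29.6.

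**Figure D2:**
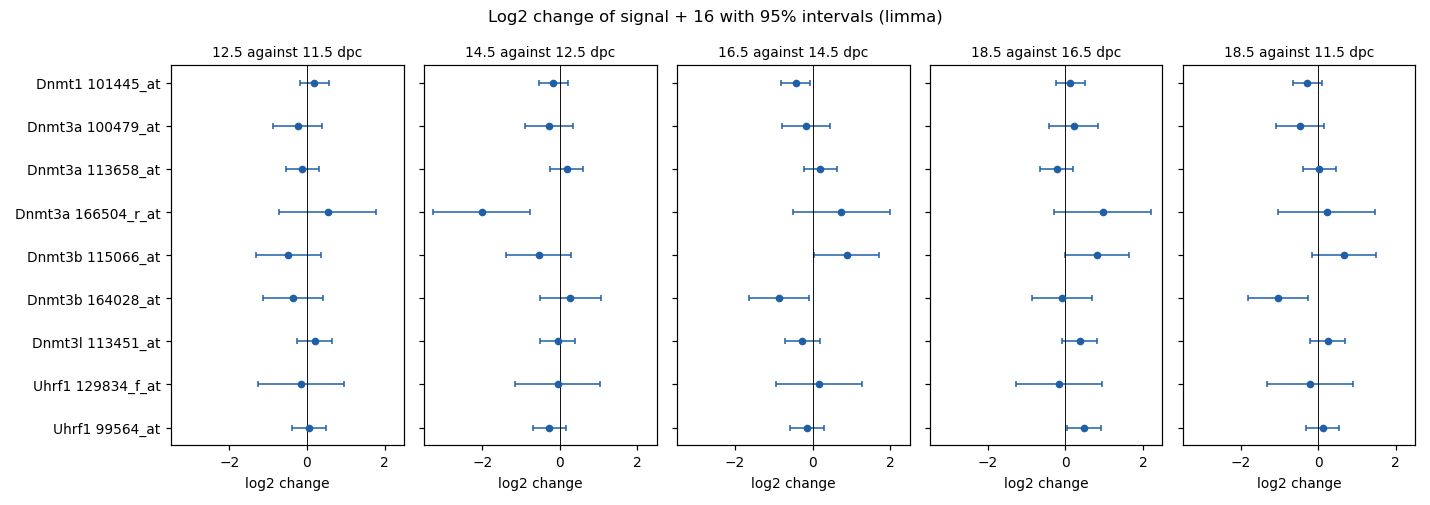
Log2 change of signal + 16 (points) with its 95% interval (bars) for the 9 tested member probe sets in the 5 age comparisons, the later age over the earlier. The intervals of Dnmt3a 166504_r_at at 14.5 against 12.5 dpc (-3.27 to -0.77) and of Dnmt3b 164028_at at 18.5 against 11.5 dpc (-1.82 to -0.26) lie below 0. So do those of Dnmt1 101445_at (-0.81 to -0.07) and Dnmt3b 164028_at (-1.64 to -0.08) at 16.5 against 14.5 dpc. Those of Dnmt3b 115066_at at 16.5 against 14.5 dpc (0.04 to 1.71) and Uhrf1 99564_at at 18.5 against 16.5 dpc (0.04 to 0.91) lie above 0. No point was called after adjustment.

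The probe sets closest to each member over the 10 arrays of its type were ranked by Pearson's r, among 6775 (array A), 8085 (array B) and 5530 (array C) named probe sets. Closest to Dnmt1 101445_at were Kat7, a histone acetyltransferase that acts at replication origins (r = 0.944), Get3 (0.943), the lamin B receptor Lbr (0.926), Pola2, a subunit of DNA polymerase alpha (0.914), and Ssr1 (0.912). Closest to Uhrf1 99564_at were Sephs2 (0.913), Washc2 (0.912), Tacr2 (0.907), the corepressor Sin3a (0.904) and Armc1 (0.898). Closest to Dnmt3l 113451_at were Ppp1r14c (0.938), Fam210a (0.903), Cwf19l1 (0.892), Dhps (0.873) and Lcn11 (0.861). The 2 Dnmt3b probe sets had no gene in common among their 5 closest, which were Ppp1r11 (0.944), Abcc1 (0.916), Zcchc8 (0.906), Wdr26 (0.902) and Ehbp1l1 (0.897) for 115066_at, and Pnpla8 (0.965), Gfpt1 (0.952), Ykt6 (0.944), Phf6 (0.936) and Pdzd8 (0.932) for 164028_at. The tested Dnmt3a probe sets lie on different array types, so their closest were drawn from different probe sets and are not compared. Nearest to 113658_at were Sostdc1 (0.898), Gstt3 (0.886), Hexim1 (0.870), Cab39l (0.866) and Thra (0.862). For 100479_at they were Psmd4 (0.960), Adh5 (0.928), Cfdp1 (0.915), Rabggtb (0.900) and Mrpl21 (0.890), and for 166504_r_at Hoxa2 (0.883), Gm671 (0.866), Abhd11 (0.846), Smyd5 (0.840) and Col5a1 (0.835). Those of Uhrf1 129834_f_at were Slc39a3 (0.892), Gabpa (0.869), Dbndd2 (0.866), Cyp2c23 (0.848) and Pon3 (0.837). These values are the highest of all those compared, over 10 arrays that share their scaling.

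Around the members, genes that act with DNA methyltransferases or in silencing chromatin were called in both directions at 18.5 against 11.5 dpc. Of 25 tested genes (29 listed) 1 rose, 4 fell and 20 did not pass, beside 9.14% of all genes that rose and 8.37% that fell. The list median log2 change was -0.15. Each gene, here and over all genes, is counted by 1 probe set. Some that did not pass had another tested probe set that was called. For Cbx5 these were 104259_at (log2 change -1.24), 105439_at (-0.87) and 95614_at (-1.30), while 140640_at (-0.86) was not called. For Trim28 it was 93071_at (-0.89), for Daxx 169200_at (-1.90, beside 0.40 for the probe set counted) and for Hells 109701_at, described below. Uhrf2, the paralogue of Uhrf1, gave 187.9 and 277.2 at 18.5 dpc, against 723.2 and 501.4 at 11.5 dpc. It fell 2.53-fold (log2 change -1.34, SE 0.24, limma adjusted p = 0.0028), and was called in all 19 alternatives. Its mean was lower at each age than at the one before. The corresponding log2 change of Uhrf1 99564_at was 0.11, and the difference between the paralogues was not tested. A second Uhrf2 probe set, 167809_r_at, had signals of 3.9 to 49.4 and was not tested.

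The polycomb methyltransferase Ezh2 fell 2.44-fold (limma adjusted p = 0.0015) and the chromatin remodeller Atrx 1.81-fold (adjusted p = 0.0086). Pcna, the sliding clamp that also binds Dnmt1, fell 1.96-fold (adjusted p = 0.0098). Usp7, a deubiquitinase that stabilises Dnmt1 and Uhrf1, was the gene that rose, 1.47-fold (adjusted p = 0.028), with 383.2 and 361.5 at 18.5 dpc, against 253.1 and 241.8 at 11.5 dpc. Usp7 was called in 14 of 19 alternatives, and its other tested probe sets had log2 changes of 0.37 and -0.09, not called. On leaving out 1 sample the rises in the list ran from 0 (without 11.5 dpc replicate 2 or either sample of 18.5 dpc) to 3 (without 11.5 dpc replicate 1), and the falls were 2 without 18.5 dpc replicate 2. Between neighbouring ages Setdb1, a histone methyltransferase, rose 1.88-fold at 14.5 against 12.5 dpc (adjusted p = 0.040), and Eed, a polycomb subunit, rose 2.03-fold at 18.5 against 16.5 dpc (adjusted p = 0.049).

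The list of DNA replication and S phase, the cell cycle phase in which Dnmt1 and Uhrf1 act, held more falls than rises. Of 39 tested genes (40 listed) 15 fell, 1 rose and 23 did not pass at 18.5 against 11.5 dpc. Over all genes 8.37% fell and 9.14% rose. The list median log2 change was -0.39. Among genes that did not pass, Mcm5 100156_at (log2 change -0.65), Gins1 114630_at (-1.06) and Gins1 165202_r_at (1.45) were called, though not the probe sets counted. The ribonucleotide reductase subunits Rrm1 and Rrm2 fell 3.43-fold and 3.34-fold, topoisomerase Top2a fell 3.39-fold, and the helicase subunits Mcm7 and Mcm4 fell 2.86-fold and 2.81-fold (limma adjusted p from 4.5e-05 to 0.00014 for these 5). Rpa1 and Mki67 fell 2.25-fold and 2.12-fold (adjusted p = 0.0014 and 0.0021). Other tested probe sets, none called, had log2 changes of 0.67 (Rrm1 170351_at), 0.03 (Mki67 161931_r_at) and -1.03 (Rpa1 170055_at). Prim1 fell 2.15-fold (adjusted p = 0.032), with a wide gap between its samples of 11.5 dpc (323.1 and 142.3), and was called in 13 of 19 alternatives, with an adjusted p of 0.214 without 11.5 dpc replicate 1. The gene that rose was Chaf1a, a chromatin assembly factor, by 1.49-fold (adjusted p = 0.035), named after its value was seen. It was called in 12 of 19 alternatives, and lost with no filter, with quantile normalization, with 75th percentile scaling, without 11.5 dpc replicate 2, without either sample of 18.5 dpc and with only the 2 ages fitted. Over the alternatives 11 to 17 of the list fell. The Dnmt1 log2 change of -0.28 beside the list median of -0.39, and the Uhrf1 change of 0.11, are values side by side, and the members were not tested against the list.

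Genes of the methyl donor and folate cycle, which supply S-adenosylmethionine, gave 4 falls and 1 rise among 10 tested genes (18 listed) at 18.5 against 11.5 dpc. Over all genes 8.37% fell and 9.14% rose. The list median log2 change was -0.61. Mthfd1 did not pass by the probe set counted (log2 change -0.99), but 109735_at was called (-0.96) and 167558_at was not (0.55). Mat2b, the regulatory subunit of methionine adenosyltransferase, gave 917.0 and 904.4 at 18.5 dpc, against 314.5 and 280.6 at 16.5 dpc and 431.4 and 371.3 at 11.5 dpc. It rose 2.23-fold over the whole course (limma adjusted p = 0.00053) and 2.96-fold at 18.5 against 16.5 dpc (adjusted p = 0.00070). The folate enzymes Shmt1 and Mthfd2 fell 2.06-fold and 1.79-fold, Mtap of the methionine salvage pathway fell 1.79-fold, and Ahcy 96025_g_at, whose gene product removes S-adenosylhomocysteine, fell 1.62-fold. The other tested Ahcy probe sets had log2 changes of 0.23 (96024_at, adjusted p = 0.323, both samples of 18.5 dpc above both of 11.5 dpc) and -0.03 (96026_at, adjusted p = 0.947), so no direction is given for Ahcy as a gene. Those of Shmt1 had log2 changes of -0.33 (113935_at) and 0.11 (133268_f_at), neither called. Mtap was called in 11 of 19 alternatives and Ahcy 96025_g_at in 14. Leaving out 18.5 dpc replicate 1 left 1 fall, and leaving out 18.5 dpc replicate 2, 11.5 dpc replicate 1 or the intensity trend left 2.

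Genes of DNA demethylation and base excision repair gave 2 rises and 2 falls among 17 tested genes (21 listed) at 18.5 against 11.5 dpc. Over all genes 9.14% rose and 8.37% fell. The list median log2 change was -0.19. Gadd45g, a stress-inducible gene, fell 6.02-fold (limma adjusted p = 4.0e-06) and the repair endonuclease Apex1 fell 1.71-fold (adjusted p = 0.0071). Dppa3, which in mouse oocytes restrains Uhrf1, rose 2.87-fold (adjusted p = 0.0012), but not steadily, with 33.2 and 25.3 at 16.5 dpc beside 1238.4 and 1086.2 at 18.5 dpc, and 480.3 and 322.2 at 11.5 dpc. It is also 1 of the germ cell markers. Gadd45b rose 2.00-fold (adjusted p = 0.0498), called in 5 of 19 alternatives. The Tet genes, whose enzymes oxidise methylcytosine, were not called and are named after their values were seen. Tet1 133204_at gave 79.4 and 53.3 at 18.5 dpc, against 162.3 and 136.1 at 11.5 dpc (log2 change -1.02, adjusted p = 0.0686). The log2 changes of the Tet2 probe sets were -0.08 (adjusted p = 0.883) and -0.83 (adjusted p = 0.0510), and those of the Tet3 probe sets -0.11 (adjusted p = 0.877) and 0.74 (adjusted p = 0.320). Of 5 tested genes of methyl-CpG binding proteins (7 listed) 0 passed in limma, with a median log2 change of -0.13.

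Germline genes whose promoters are methylated in somatic cells rose in the main. Of 13 tested genes (21 listed) 9 rose, 2 fell and 2 did not pass at 18.5 against 11.5 dpc. Over all genes 9.14% rose and 8.37% fell. The list median log2 change was 1.68. The synaptonemal complex genes Sycp1 and Syce1 rose 50.6-fold and 12.9-fold, the RNA-binding protein Dazl 11.3-fold, the bromodomain gene Brdt 7.80-fold, the piRNA helicase Mov10l1 5.76-fold and the helicase Ddx4 (94162_at) 4.66-fold (limma adjusted p from 4.5e-08 to 0.0021). A second Ddx4 probe set, 165513_i_at, gave 143.4 and 126.3 at 18.5 dpc, against 241.4 and 149.7 at 11.5 dpc (log2 change -0.46, adjusted p = 0.413). Other probe sets of Dazl (160357_at) and Mov10l1 (167013_at) had log2 changes of 0.28 and 0.74, neither called. Both falls were in homeobox genes of the X chromosome, Rhox9 (10.8-fold) and Rhox5 (4.37-fold). The germ cell marker list holds 6 of the 21 genes, and its summed signal given above was higher at 18.5 than at 11.5 dpc. No DNA methylation was measured here. Over these lists, 14 of the called genes had another tested probe set, 19 in all, of which 13 had the same sign at 18.5 against 11.5 dpc (2 called) and 6 the opposite sign (0 called by limma after adjustment). Those 6 belong to Ahcy, Ddx4, Mki67, Rrm1, Shmt1 and Usp7.

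**Figure D3:**
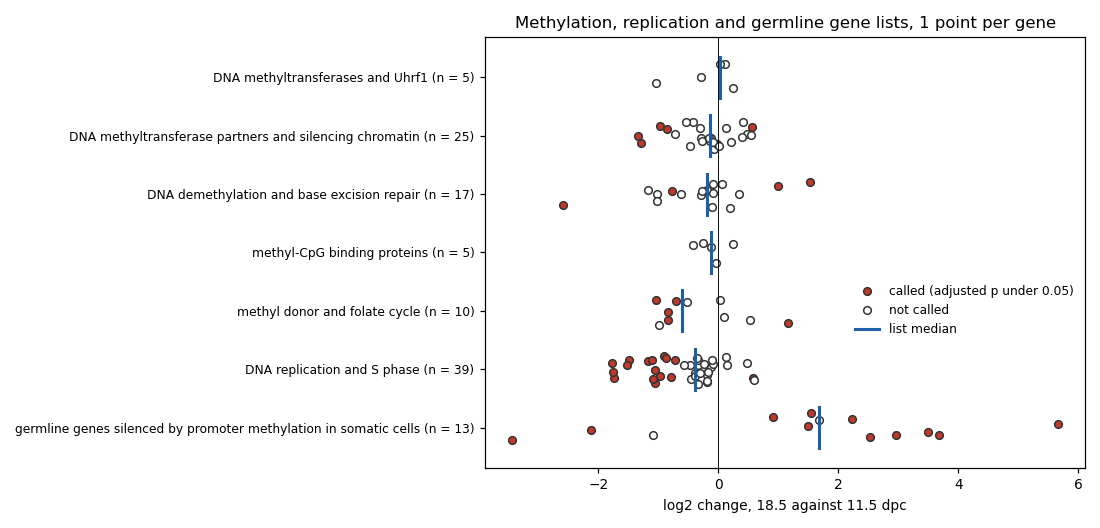
Log2 change at 18.5 against 11.5 dpc of each tested gene (1 point per gene, n tested in parentheses) in the 7 lists; filled points were called at an adjusted p under 0.05 and the blue bar is the list median. None of the 5 methyltransferase and Uhrf1 genes was called, with a median of 0.03, while replication genes had a median of -0.39 and germline genes 1.68.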

How the data were processed

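Total RNA of pooled embryonic ovaries was measured on 30 Affymetrix arrays, 10 of each of 3 types. The deposited values are linear signal intensities, and per the labels the authors scaled each array to a mean of 125. Their software is not given in the sources here. Detection calls were not used. Of 36899 probe sets 198 were controls. Only the 29131 with 1 gene symbol in the platform annotation were named.

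Log2(signal + 16) values of each array type were fitted separately (limma 3.58.1, R 4.3.3; 5 ages as groups, lmFit, eBayes with an intensity trend, 5 residual degrees of freedom), and p-values were adjusted by Benjamini-Hochberg over the 24825 tested probe sets. Precision is limited by the number of arrays. A gene in a list was represented by its tested probe set of highest mean log2 signal, although levels of different probe sets are not on a common scale. For Dnmt3b this was 164028_at (log2 change -1.04 at 18.5 against 11.5 dpc) and not 115066_at (0.66). The procedure was tested on simulated data. Named were all member probe sets, at most 8 called genes per list by size of change at 18.5 against 11.5 dpc, and the 5 probe sets most like each member. Genes that did not pass but had another tested probe set that was called were named after their values were seen. The members, lists and tests were chosen with earlier results of these data known. Gene positions, promoters and gene names beyond the annotation are from RefSeq (GRCm38.p6). Alternatives were another pseudocount, filter, scaling or model, each sample left out, and only the ages compared. How many list members were called under each of them was added after seeing the data.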

Additional observations from a re-analysis of the deposited data

How the results depend on the processing

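Over the alternatives, 993 of 999 values of the 9 member probe sets stayed on the same side of the threshold and 6 became called. These 6 were the Dnmt1 101445_at F test without 11.5 dpc replicate 1 (adjusted p = 0.0487), Dnmt3a 166504_r_at at 14.5 against 12.5 dpc without 16.5 dpc replicate 1 (0.042) and in the F test without 16.5 dpc replicate 1 (0.042) or 2 (0.0253), Dnmt3b 115066_at in the F test without the intensity trend (0.0366), and Dnmt3b 164028_at at 18.5 against 11.5 dpc without 16.5 dpc replicate 2 (0.0499). Of 840 log2 changes 814 kept their sign, and none that was called changed it. A log2 change is a difference of 2 age means. The filters, the trend, a term for the sample number, fitting only the 2 ages, and leaving out a sample of another age could not alter it. The 814 of 840 is therefore not a measure of stability. With a filter at a signal of 100, Dnmt3a 100479_at and both Dnmt3b probe sets gave no value. The causes were not tested. The number of member probe sets called was 1 in the F test without the intensity trend, Dnmt3b 115066_at, which passed the filter only through 18.5 dpc. With 1 sample left out it ran from 0 to 1 at 14.5 against 12.5 dpc, at 18.5 against 11.5 dpc and in the F test, and was 0 in the other comparisons.

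Counts over all probe sets moved more. At 12.5 against 11.5 dpc the count was 6 with no filter, 32 with quantile normalization, 26 with 75th percentile scaling, 4 without the trend and 2 with only the 2 ages fitted. At 14.5 against 12.5 dpc it was 271 without the trend. At 16.5 against 14.5 dpc it was 101 with no filter, 76 without the trend and 96 with only the 2 ages. It was 88 with a pseudocount of 1 at 18.5 against 16.5 dpc, and 2348 with only the 2 ages at 18.5 against 11.5 dpc. With 1 sample left out the counts ran from 2 to 553, 112 to 830, 30 to 564 and 33 to 242 over the 4 intervals in order of age, from 1562 to 3478 over the whole course, and from 1812 to 4366 in the F test. With 1 sample left out an age held 1 array per type, which was assumed to vary like the other ages.

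With the sample number as a replicate block the counts were 32, 329, 150 and 126 for the intervals, 3415 over the whole course and 3301 in the F test, and 0 of 9 members were called by limma. The numbers share only a label: the correlation of same-numbered deviations between ages ran from -0.161 to 0.219, and exceeded 0.1 in 1 of 10 pairs of ages on array A and 0 of 10 on B and C.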

Other observations

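Hells, a chromatin remodeller needed for normal DNA methylation and for meiosis in the mouse, was chosen here after its values were seen, and its 2 tested probe sets differed. Probe set 93228_at on array A gave 350.9 and 226.2 (11.5 dpc), 508.7 and 478.1 (12.5 dpc), 1090.0 and 775.8 (14.5 dpc), 524.7 and 440.5 (16.5 dpc) and 424.3 and 409.1 (18.5 dpc), with both samples of 14.5 dpc above the other 8. Neither neighbouring comparison was called, with a log2 change of 0.88 at 14.5 against 12.5 dpc (limma adjusted p = 0.0621) and -0.91 at 16.5 against 14.5 dpc (adjusted p = 0.0696), while the F test over the 5 ages was (adjusted p = 0.0031). Probe set 109701_at on array B gave 4.5 and 8.4 (11.5 dpc), 36.4 and 19.9 (12.5 dpc), 6.2 and 7.8 (14.5 dpc), 89.1 and 20.0 (16.5 dpc) and 130.6 and 100.7 (18.5 dpc). It was highest at 18.5 dpc and passed the filter only through that age, so no single course over age is given for Hells.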
